A study of Mus musculus with 6 samples.

Results

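A dividing cell first licenses and copies its DNA and then segregates it, and the genes for these steps are switched on in order. The E2F factors, released from the retinoblastoma protein by the cyclin D kinases, drive the replication genes at the entry to S phase, and the MuvB complex with FOXM1 and B-MYB drives the mitotic genes later. In epidermis division is largely the work of the basal layer and of growing hair follicles, and keratinocytes leave the cycle as they move up. The genes described here are 42 cell cycle and DNA replication genes, chosen by name, of the 30386 genes in the deposited table. All 42 were found. By role they were 13 DNA replication genes, 6 genes of G1 and S control, 19 genes of G2/M and mitosis, and 4 chromatin and tubulin genes that are high in dividing cells.

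The tissue was epidermis of dorsal skin from mouse embryos at E18.5, parted from dermis with Dispase and dissociated with Accutase. The groups were p63alphaKO (3 libraries), a genotype whose name refers to the alpha forms of the transcription factor p63, and wild type (WT, 3 libraries). The labels do not say how the allele was made or whether the libraries of a group came from separate embryos, so p-values measure the spread between these libraries only. The assay, 3' digital gene expression sequencing, counts mRNAs by their 3' ends, and the values were deposited as CPM, the reads of a gene scaled to its library's total. Trp63, which encodes p63, was at 143, 146 and 136 CPM in p63alphaKO replicates 1, 2 and 3, against 63.9, 71.7 and 87.2 CPM in WT replicates 1, 2 and 3. A value per gene cannot tell isoforms apart, so it is no check of the alpha forms.

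The libraries held between 3350442 and 3539604 reads in p63alphaKO and between 2564407 and 4474764 reads in WT. All carried the keratins of epidermis, with Krt14 between 2009 and 2536 CPM in p63alphaKO and between 1159 and 2424 CPM in WT. Markers of other tissues differed between the groups: the summed level of 14 fibroblast markers was between 579.5 and 1009 CPM in p63alphaKO and between 2654 and 5756 CPM in WT. In bulk RNA, fewer cells of a type and less RNA per cell cannot be told apart. A gene was tested with limma where its mean over the 6 libraries was at least 10 CPM, and called at an adjusted p under 0.05. Each log2 fold change sets p63alphaKO over WT after adding 1 to the CPM, a step that shrinks the changes of low genes, and is given with its 95% interval.

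Replication and mitosis genes carry different promoter elements, and a set of promoters is shown because this is the division along which the genes are compared here. RefSeq promoters (GRCm38.p6, 250 bases before to 50 after the gene start) matched 33 of the 42 genes, with 34 promoters in all. Mcm4, Gins2, Ccnd1, Ccnd2, Ccna2, Aurkb, Kif20a, Tpx2 and Stmn1 had no entry. Searched on both strands were the E2F core in 4 forms (TTCCCGC, the form TTCGCGC, the form TTGCCGC and the form TTGGCGC), the CCAAT box (CCAAT) and the cell cycle homology region, CHR (TTTGAA), to which the MuvB complex is known to bind. In the sequences that follow, written 5′ to 3′ along the gene's strand, capitals mark these matches. Forms can overlap one another, as in Mcm6, and an E2F match overlapped a CCAAT match in 2 of the 34 promoters. Mcm6 had the most E2F matches of the replication genes, Cdt1 is the replication gene with the largest positive fold change, no mitosis promoter had more CCAAT or CHR matches than that of Top2a, and Cdk1 held all 3 motifs.
Mcm6, chr1:128359656-128359955, minus strand: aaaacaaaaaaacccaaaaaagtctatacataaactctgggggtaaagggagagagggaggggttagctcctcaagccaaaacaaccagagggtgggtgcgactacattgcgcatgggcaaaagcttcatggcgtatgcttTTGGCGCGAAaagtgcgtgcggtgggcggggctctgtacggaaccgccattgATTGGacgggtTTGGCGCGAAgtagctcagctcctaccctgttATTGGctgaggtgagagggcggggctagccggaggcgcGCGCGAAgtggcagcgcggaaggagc
Cdt1, chr8:122567765-122568064, plus strand: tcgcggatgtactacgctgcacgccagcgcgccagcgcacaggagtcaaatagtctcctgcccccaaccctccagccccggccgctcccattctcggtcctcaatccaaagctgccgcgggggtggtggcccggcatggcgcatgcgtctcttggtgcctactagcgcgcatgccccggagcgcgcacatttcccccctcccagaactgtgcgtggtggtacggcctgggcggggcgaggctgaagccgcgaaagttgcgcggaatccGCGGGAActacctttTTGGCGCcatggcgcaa
Top2a, chr11:99024140-99024439, minus strand: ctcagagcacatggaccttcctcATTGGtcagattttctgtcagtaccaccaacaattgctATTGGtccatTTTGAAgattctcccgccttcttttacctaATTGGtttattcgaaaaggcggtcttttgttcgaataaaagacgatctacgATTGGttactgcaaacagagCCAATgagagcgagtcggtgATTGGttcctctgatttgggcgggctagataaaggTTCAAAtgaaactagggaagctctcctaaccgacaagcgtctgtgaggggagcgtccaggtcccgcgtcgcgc
Cdk1, chr10:69352863-69353162, minus strand: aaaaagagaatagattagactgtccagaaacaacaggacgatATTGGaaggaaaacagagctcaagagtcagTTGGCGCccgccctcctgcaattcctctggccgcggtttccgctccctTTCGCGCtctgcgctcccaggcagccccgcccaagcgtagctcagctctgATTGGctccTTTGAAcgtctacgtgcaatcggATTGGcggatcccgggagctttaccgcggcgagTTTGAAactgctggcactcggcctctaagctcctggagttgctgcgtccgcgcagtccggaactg

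An E2F core was found in 9 of 12 replication promoters (75.0%) and in 3 of 15 mitosis promoters (20.0%), against 9.6% of all 32851 promoters in the table. The CHR showed the opposite division, with 12 of 15 mitosis promoters (80.0%) and 1 of 12 replication promoters (8.3%), against 17.9% of all promoters. CCAAT boxes were common to both, in 14 of 15 mitosis promoters (93.3%) and 9 of 12 replication promoters (75.0%), against 37.4% of all. A match describes the letters of the window and not a bound site.

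**Figure D1:**
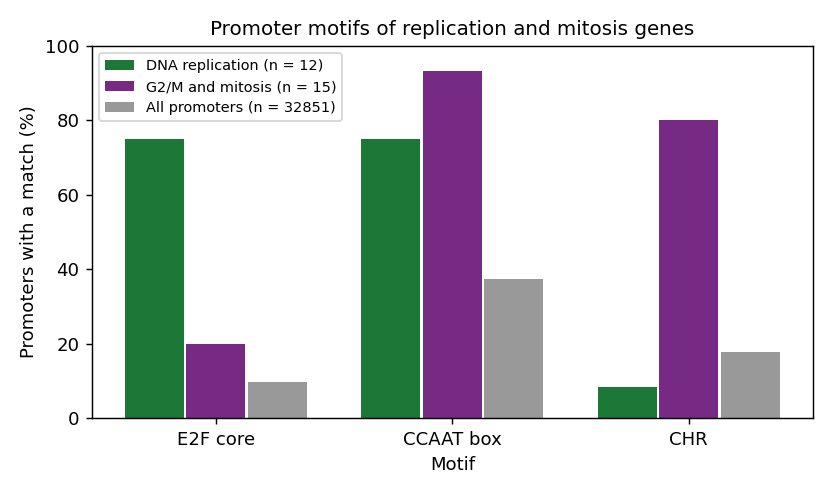
Share of promoters, in percent, with at least 1 match to each motif, for the replication genes (12 promoters), the mitosis genes (15) and all promoters in the table (32851). E2F cores are found in 75.0% of replication and 20.0% of mitosis promoters, and the CHR in 8.3% and 80.0%.

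No gene of the cell cycle set passed the test between p63alphaKO and WT epidermis. Of the 42 genes, 33 reached the minimum level and 0 of them were called by limma, in a table where 1.65% of the 7464 tested genes were called (0.469% higher and 1.18% lower). Over all genes that was 35 higher and 88 lower, against 48 higher and 65 lower with TMM scaling, which sets libraries to a common level by the bulk of their genes. At an unadjusted p under 0.05 there were 2, Ccnd1 and Cenpf, beside 15.6% of all tested genes, and edgeR and DESeq2 on reads recovered from the CPM also called 0 of the 33. The median log2 fold change of the 33 was -0.21, with 6 positive and 27 negative, beside -0.085 for all tested genes. TMM moved both medians up, to -0.11 for the 33 genes, with 9 positive and 24 negative, and to 0.018 for all tested genes. The interval lay within a 2-fold change in either direction for 23 of the 33 genes, beside 65.7% of all tested genes. For the other 10 the interval reached past a 2-fold change in 1 direction. Groups did not overlap for 3 of the 33, Cdk2 and Cdt1 (higher in p63alphaKO) and Rrm2 (lower), beside 21% of all tested genes (7.6% higher and 13.4% lower).

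**Figure D2:**
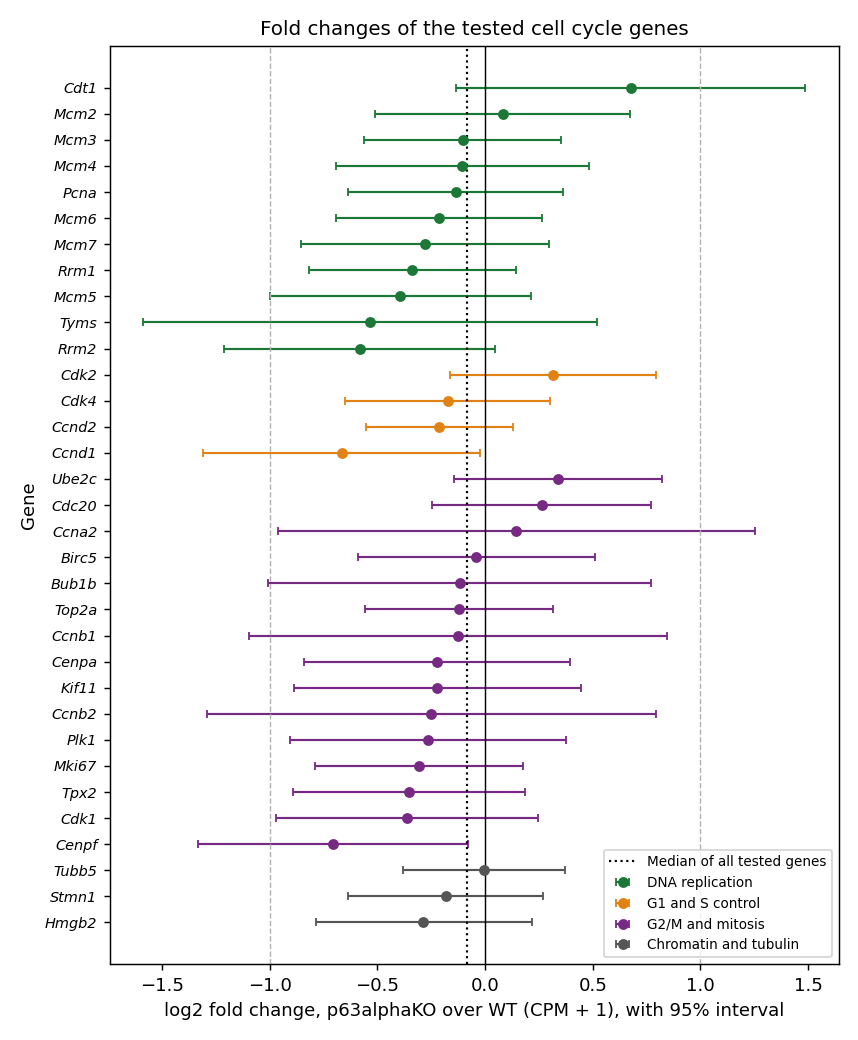
Log2 fold change (p63alphaKO over WT, on CPM + 1) with its 95% interval for each of the 33 tested genes, coloured by role. The dotted line is the median of all tested genes (-0.085) and the dashed lines mark 2-fold changes. The intervals of Ccnd1 and Cenpf alone leave out 0, and neither gene passed the adjusted test.

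None of the 13 DNA replication genes passed the test. Of the 11 tested, 2 had positive and 9 negative fold changes, the median was -0.21 and limma's adjusted p lay between 0.365 and 0.930. The median was -0.090 without p63alphaKO replicate 3, -0.11 with TMM and -0.080 with upper quartile factors. Mcm2 to Mcm7 encode the 6 subunits of the MCM helicase, which opens the duplex ahead of the replication fork, and their log2 fold changes ran from -0.39 (Mcm5) to 0.082 (Mcm2). Mcm6 (chromosome 1, 128331590 to 128359664, minus strand, mm10) was at 40.7, 39.6 and 32.5 CPM in p63alphaKO, against 42.1, 38.4 and 51.0 CPM in WT. The groups overlapped, and its log2 fold change was -0.21 (95% interval -0.69 to 0.27, adjusted p = 0.711).

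Mcm7 (chromosome 5, 138164583 to 138172422, minus strand) was at 58.2, 60.9 and 46.2 CPM in p63alphaKO, against 42.1, 72.8 and 96.0 CPM in WT. The WT libraries were spread over more than the whole range of the p63alphaKO libraries (log2 fold change -0.28, interval -0.86 to 0.30, adjusted p = 0.683). The value was -0.60 (adjusted p = 0.177) without WT replicate 1 and -0.017 without WT replicate 3. Exons of Mcm7 overlap those of Cops6 on the other strand, and 3' ends of each gene lie inside exons of its partner, so their reads cannot be told apart if counting did not use the strand. Cops6 was at 86.9 ± 2.52 CPM in p63alphaKO and 52.1 ± 11.4 CPM in WT (SD, n = 3 each). Its part in the Mcm7 values was not tested.

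The sliding clamp gene Pcna, which holds DNA polymerase on its template, was at 29.4 ± 3.52 CPM in p63alphaKO and 32.3 ± 2.51 CPM in WT (SD, n = 3 each). Its log2 fold change was -0.14 (interval -0.64 to 0.36, adjusted p = 0.839). For Pcna and Mcm3 the spread between libraries of a group, at SDs of 0.14 and 0.098 on the log2 scale, was about that of read counting alone, at 0.14 and 0.12. For Rrm2 and Cdk2, whose groups did not overlap, it was 0.17 and 0.097, against 0.18 and 0.13 from counting alone.

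Among the enzymes that supply nucleotides, Rrm2 had the lowest fold change of the 11 tested replication genes. Rrm2 (chromosome 12, 24708241 to 24714146, plus strand), the S-phase subunit of ribonucleotide reductase, was at 14.4, 14.9 and 12.5 CPM in p63alphaKO, against 17.9, 23.5 and 23.0 CPM in WT. Every p63alphaKO library lay below every WT library, and the log2 fold change of -0.58 (interval -1.21 to 0.048) did not pass the test (adjusted p = 0.365). Rrm2 shares 14.1% of the 50-base stretches of its annotated 3' ends with 2 other annotated genes, so its reads may be divided or lost. Rrm1 (chromosome 7, 102441695 to 102469771, plus strand), the large subunit of that enzyme, was at 44.9, 50.1 and 36.4 CPM in p63alphaKO, against 47.2, 52.9 and 67.1 CPM in WT. The groups overlapped through p63alphaKO replicate 2, and the log2 fold change was -0.34 (interval -0.82 to 0.14, adjusted p = 0.515). Tyms, the thymidylate synthase gene, was read thinly, with as few as 11 reads in a library, and had a value of -0.53 (interval -1.59 to 0.52, adjusted p = 0.667). It was -0.013 without p63alphaKO replicate 3 and -0.92 without p63alphaKO replicate 1.

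Of the genes that load and start the helicase, Cdt1 stood on the other side. Cdt1 (chromosome 8, 122568015 to 122573554, plus strand), a licensing factor that brings MCM to origins, was at 17.5, 16.3 and 16.7 CPM in p63alphaKO, against 6.23, 15.9 and 10.4 CPM in WT. The p63alphaKO libraries lay close together and just above WT replicate 2, with a log2 fold change of 0.68 (interval -0.14 to 1.49, adjusted p = 0.424). WT replicate 1 held 16 reads of it, and without that library the value was 0.36. Cdc6, the partner of Cdt1 in licensing, was under the minimum at 5.36, 10.5 and 1.79 CPM in p63alphaKO, against 11.7, 3.57 and 5.98 CPM in WT. Gins2, a subunit of the active helicase, was also under it, at 4.23, 5.53 and 0.30 CPM in p63alphaKO, against 3.51, 5.58 and 5.35 CPM in WT. The value of 0.30 CPM was a single read (1 read), below the 0.895 CPM that 3 reads stand for in that library. Gins2 and Gse1, on the other strand, have 3' ends inside exons of each other. Gse1 was at 50.7 ± 9.45 CPM in p63alphaKO and 64.7 ± 7.38 CPM in WT (SD, n = 3 each), and its part in the Gins2 values was not tested.

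In G1 and S control both D cyclins had negative fold changes, and neither passed the adjusted test. Of the 6 genes 4 were tested, 1 positive and 3 negative, with a median of -0.19. Ccnd1 (chromosome 7, 144929931 to 144939925, minus strand), the cyclin D gene best known as a target of growth signals, was at 110, 127 and 59.7 CPM in p63alphaKO, against 140.3, 103 and 232 CPM in WT. WT replicate 2 lay below p63alphaKO replicates 1 and 2, so the groups overlapped. The log2 fold change was -0.67 (interval -1.31 to -0.024, unadjusted p = 0.0430, adjusted p = 0.303). It was -0.34 without p63alphaKO replicate 3 and -0.35 without WT replicate 3, the libraries at the low and the high end. Its exons overlap those of LTO1 on the other strand, with 3' ends of each inside exons of its partner. Ccnd2 (chromosome 6, 127125162 to 127152193, minus strand), which encodes the sister protein cyclin D2, was at 879, 865 and 686 CPM in p63alphaKO, against 824, 952 and 1034 CPM in WT. The groups overlapped, and the value was -0.21 (interval -0.55 to 0.13, adjusted p = 0.577).

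Neither kinase of G1 and S passed the test. Cdk4 (chromosome 10, 127063534 to 127067920, plus strand), the partner of the D cyclins, was at 59.3, 38.2 and 53.7 CPM in p63alphaKO, against 61.2, 57.4 and 50.1 CPM in WT. The groups overlapped widely, with a log2 fold change of -0.17 (interval -0.65 to 0.30, adjusted p = 0.770). Cdk4 and Tspan31, on the other strand, also overlap at their 3' ends, and Tspan31 was at 15.2 ± 3.51 CPM in p63alphaKO and 19.2 ± 2.15 CPM in WT (SD, n = 3 each). Cdk2 (chromosome 10, 128697939 to 128705031, minus strand), the partner of cyclins E and A, was at 39.8, 39.0 and 34.6 CPM in p63alphaKO, against 29.2, 32.4 and 29.0 CPM in WT. All p63alphaKO values were above all WT values, at a log2 fold change of 0.32 (interval -0.16 to 0.79, adjusted p = 0.552). Exons of Cdk2 overlap those of the melanocyte gene Pmel on the other strand. No annotated 3' end of either gene lies inside exons of its partner. Pmel was at 48.5 ± 13.3 CPM in p63alphaKO and 38.7 ± 4.06 CPM in WT (SD, n = 3 each), and its part in the Cdk2 values was not tested.

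E2f1 and Ccne1 were under the minimum for testing. E2f1 (chromosome 2, 154559407 to 154569892, minus strand), an activating E2F, was at 6.21, 4.95 and 6.26 CPM in p63alphaKO, against 13.6, 11.2 and 7.56 CPM in WT, and the groups did not overlap. In the limma fit with no minimum its log2 fold change was -0.76 (interval -1.73 to 0.20, adjusted p = 0.535), on 17 to 50 reads per library. Ccne1, which encodes cyclin E1, was at 4.36 ± 1.27 CPM in p63alphaKO and 5.80 ± 0.646 CPM in WT (SD, n = 3 each).

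**Figure D3:**
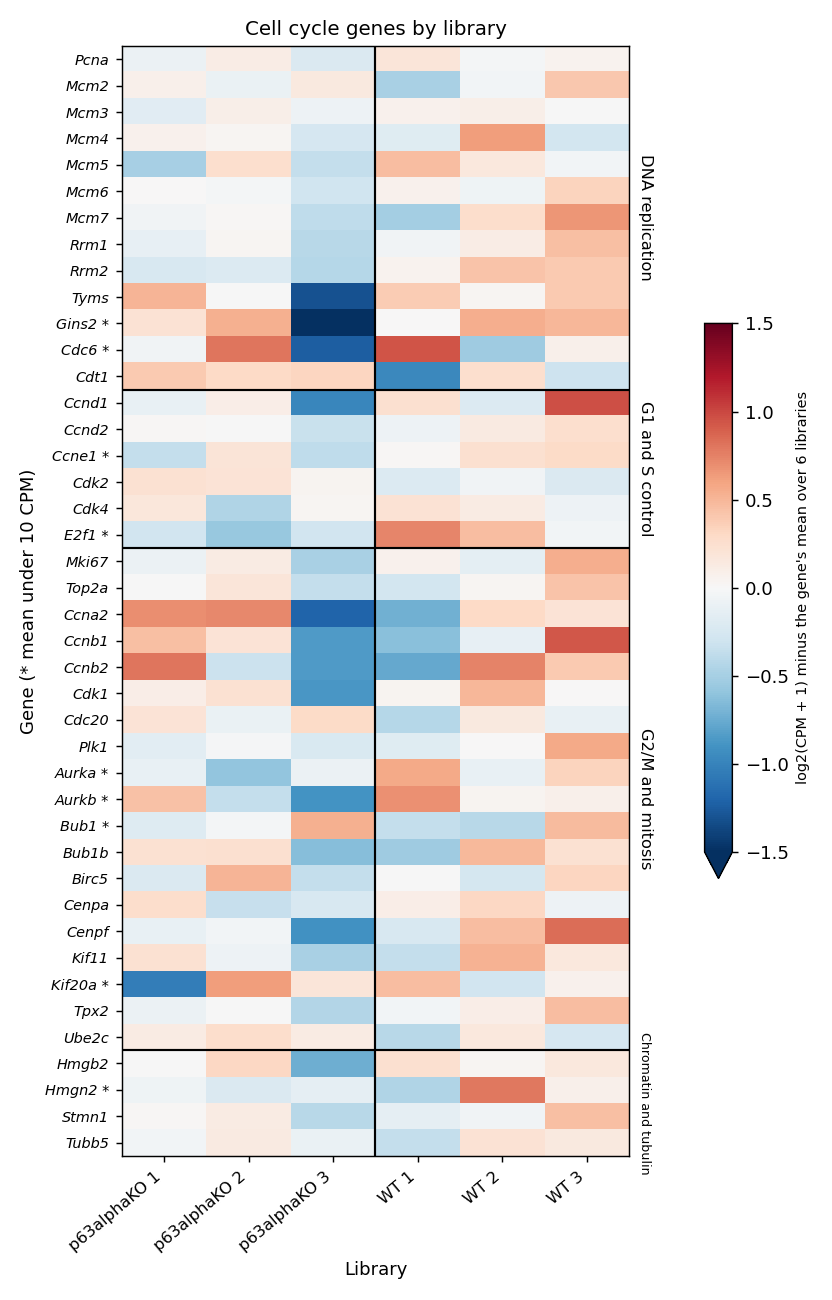
Log2(CPM + 1) of each of the 42 genes in each library as the difference from that gene's mean over the 6 libraries, with the p63alphaKO libraries on the left, WT on the right and genes grouped by role. Genes marked with an asterisk had a mean under 10 CPM, and the value of Gins2 in p63alphaKO replicate 3 (0.30 CPM) lies beyond the colour scale. The column of p63alphaKO replicate 3 holds the lowest value of 21 of the 33 tested genes.

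The 19 genes of G2/M and mitosis gave no call either. Of the 15 tested, 3 had positive and 12 negative fold changes, with a median of -0.22 and adjusted p between 0.255 and 0.968. Top2a (chromosome 11, 98992943 to 99024189, minus strand), the topoisomerase that untangles sister chromosomes, was at 239, 271 and 187 CPM in p63alphaKO, against 197, 245 and 322 CPM in WT. Mki67 (chromosome 7, 135689784 to 135716361, minus strand), the gene of the proliferation antigen Ki-67, was at 85.3, 99.0 and 64.7 CPM in p63alphaKO, against 95.1, 82.2 and 133 CPM in WT. In both genes p63alphaKO replicate 3 was the lowest library and WT replicate 3 the highest, and the groups overlapped. Their log2 fold changes were -0.12 (interval -0.56 to 0.32, adjusted p = 0.836) and -0.31 (interval -0.79 to 0.18, adjusted p = 0.568).

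Cenpf had the largest fold change of the 33 tested genes in either direction. Cenpf (chromosome 1, 189640606 to 189688086, minus strand), which encodes a large protein of the outer kinetochore, was at 52.8, 55.0 and 29.8 CPM in p63alphaKO, against 47.9, 79.0 and 102 CPM in WT. WT replicate 1 lay below p63alphaKO replicates 1 and 2. The log2 fold change was -0.71 (interval -1.33 to -0.081, unadjusted p = 0.0296, adjusted p = 0.255), and over the alternatives run its adjusted p lay between 0.0762 and 0.707. Its value was -0.43 without p63alphaKO replicate 3 and -1.01 without WT replicate 1. The kinetochore gene Cenpa, which encodes the centromeric histone, had a value of -0.22 (interval -0.84 to 0.40, adjusted p = 0.775).

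The mitotic cyclins varied most between libraries of a genotype. Ccna2, Ccnb1 and Ccnb2 had within-group SDs of 0.88, 0.75 and 0.82 on the log2 scale, beside a median of 0.33 over the 33 tested genes and of 0.30 over all tested genes. Read counting alone would give 0.23, 0.21 and 0.22 for these 3 genes. Ccna2 was at 19.5, 19.8 and 4.47 CPM in p63alphaKO, against 6.62, 14.5 and 13.5 CPM in WT. Ccnb1 was at 19.2, 16.0 and 7.16 CPM in p63alphaKO, against 8.57, 12.5 and 27.1 CPM in WT. Ccnb2 was at 22.9, 9.90 and 6.56 CPM in p63alphaKO, against 7.01, 21.9 and 17 CPM in WT. All 3 were low in p63alphaKO replicate 3 and in WT replicate 1, and their log2 fold changes of 0.15, -0.12 and -0.25 had intervals that reached past a 2-fold change in 1 direction (adjusted p = 0.932, 0.936 and 0.863). Ccnb1 shares 29.6% of the 50-base stretches of its annotated 3' ends with 5 other annotated genes, so its reads may be divided or lost. Ccna2 and Exosc9, on the other strand, have 3' ends inside exons of each other. Exosc9 was at 19.0 ± 5.37 CPM in p63alphaKO and 21.6 ± 11.9 CPM in WT (SD, n = 3 each), and its part in the Ccna2 values was not tested.

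Cdk1 (chromosome 10, 69335146 to 69352938, minus strand), the kinase that those cyclins activate, was at 49.97, 54.8 and 25.1 CPM in p63alphaKO, against 47.9, 66.1 and 46.9 CPM in WT. The low p63alphaKO replicate 3 stood apart from libraries that otherwise overlapped (log2 fold change -0.36, interval -0.97 to 0.24, adjusted p = 0.595), and without it the value was -0.018.

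Cdc20, the activator of the anaphase-promoting complex, and Ube2c, the ubiquitin-conjugating enzyme of that complex, had log2 fold changes of 0.26 (interval -0.25 to 0.77, adjusted p = 0.662) and 0.34 (interval -0.15 to 0.82, adjusted p = 0.517). Ube2c was at 45.5, 50.4 and 45.6 CPM in p63alphaKO, against 31.2, 46.7 and 35.0 CPM in WT. A 3' end of the muscle gene Tnnc2 lies inside an exon of Ube2c on the other strand, and Tnnc2 was at 5.08, 16.0 and 10.4 CPM in p63alphaKO, against 54.9, 465 and 35.0 CPM in WT. Exons of Cdc20 overlap in the same way with Elovl1, at 706 ± 74.2 CPM in p63alphaKO and 643 ± 69.2 CPM in WT (SD, n = 3 each). The part of these partners in the values was not tested.

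The spindle motor Kif11 and the spindle assembly factor Tpx2 had values of -0.22 (interval -0.89 to 0.45, adjusted p = 0.795) and -0.35 (interval -0.89 to 0.19, adjusted p = 0.554). The mitotic kinase Plk1 had one of -0.27 (interval -0.91 to 0.38, adjusted p = 0.735). The checkpoint gene Bub1b and the chromosomal passenger Birc5, which encodes survivin, had values of -0.12 (interval -1.01 to 0.77, adjusted p = 0.931) and -0.040 (interval -0.59 to 0.51, adjusted p = 0.968). Aurka, Aurkb, Bub1 and Kif20a were under the minimum, with 7 to 32 reads per library. Aurka, the kinase of spindle poles, was at 5.81 ± 1.24 CPM in p63alphaKO and 8.84 ± 2.23 CPM in WT, and Aurkb, the kinase of the passenger complex, at 4.12 ± 2.41 CPM in p63alphaKO and 6.04 ± 1.85 CPM in WT (SD, n = 3 each). Bub1, a checkpoint kinase, was at 7.01 ± 2.23 CPM in p63alphaKO and 6.09 ± 2.63 CPM in WT, and Kif20a, a motor of cytokinesis, at 6.05 ± 3.56 CPM in p63alphaKO and 6.21 ± 1.87 CPM in WT (SD, n = 3 each).

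The 4 chromatin and tubulin genes gave no call, and the 3 tested had intervals within a 2-fold change in either direction. Tubb5 (chromosome 17, 35833921 to 35838306, minus strand), a beta tubulin, was at 502, 565 and 479 CPM in p63alphaKO, against 402, 601 and 568 CPM in WT. The log2 fold change was -0.005 with an interval from -0.38 to 0.37 (adjusted p = 0.996), and its sign turned with TMM scaling, at 0.10. Stmn1 (chromosome 4, 134468320 to 134473843, plus strand), which encodes the microtubule destabiliser stathmin, was at 117, 127 and 87.1 CPM in p63alphaKO, against 106, 112 and 159.9 CPM in WT (log2 fold change -0.18, interval -0.64 to 0.27, adjusted p = 0.742). Hmgb2 (chromosome 8, 57511907 to 57515999, plus strand), a chromatin protein gene, was at 127, 159.6 and 76.7 CPM in p63alphaKO, against 151, 131 and 143 CPM in WT. p63alphaKO replicate 3 was the low library (log2 fold change -0.29, interval -0.79 to 0.22, adjusted p = 0.618). Hmgn2, a nucleosome-binding protein gene, was under the minimum at 7.45 ± 0.455 CPM in p63alphaKO and 9.95 ± 4.77 CPM in WT (SD, n = 3 each). Hmgn2, Hmgb2, Stmn1 and Mcm7 share 57.9%, 49.6%, 41.2% and 40% of the 50-base stretches of their annotated 3' ends with other annotated genes, so their levels are uncertain.

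Set side by side, replication and mitosis genes had nearly the same median fold change. The mean log2 level over all 13 replication genes was 4.47, 4.60 and 3.98 in p63alphaKO replicates 1, 2 and 3, against 4.46, 4.60 and 4.66 in WT replicates 1, 2 and 3. The mean over all 19 mitosis genes was 4.63, 4.62 and 4.14 in p63alphaKO, against 4.39, 4.68 and 4.85 in WT. Replication minus mitosis was -0.17, -0.015 and -0.17 in p63alphaKO, against 0.066, -0.080 and -0.18 in WT. The groups overlapped, with means of -0.12 ± 0.088 in p63alphaKO and -0.066 ± 0.13 in WT (SD, n = 3 each). These levels weigh all genes alike, including 2 replication and 4 mitosis genes under the minimum, with Gins2 at 1 read in p63alphaKO replicate 3. Summed CPM of replication over that of mitosis was 0.453, 0.456 and 0.514 in p63alphaKO, against 0.527, 0.496 and 0.447 in WT. By this ratio the groups overlapped too, and p63alphaKO replicate 3 was the highest of its group. Between the medians of the tested genes, -0.21 for replication and -0.22 for mitosis, the difference was 0.007. These means, ratios and medians are given with no test, since the genes were chosen with earlier results known.

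The 6 genes of G1 and S control were the set whose mean did not overlap between the genotypes, at 5.49, 5.45 and 5.22 in p63alphaKO, against 5.70, 5.66 and 5.74 in WT. With TMM scaling, chosen after the data were seen, these means were 5.48, 5.47 and 5.36 in p63alphaKO, against 5.69, 5.61 and 5.64 in WT. Their summed CPM overlapped, at 1098, 1079 and 843.8 CPM in p63alphaKO, against 1073, 1162 and 1359 CPM in WT. E2f1 and Ccne1, both under the minimum for testing, weigh in the mean log2 level as much as each of the 4 tested genes. Of those 4, 1 (Cdk2) was higher in p63alphaKO without overlap and 0 were lower without overlap, beside 7.6% and 13.4% of all tested genes.

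**Figure D4:**
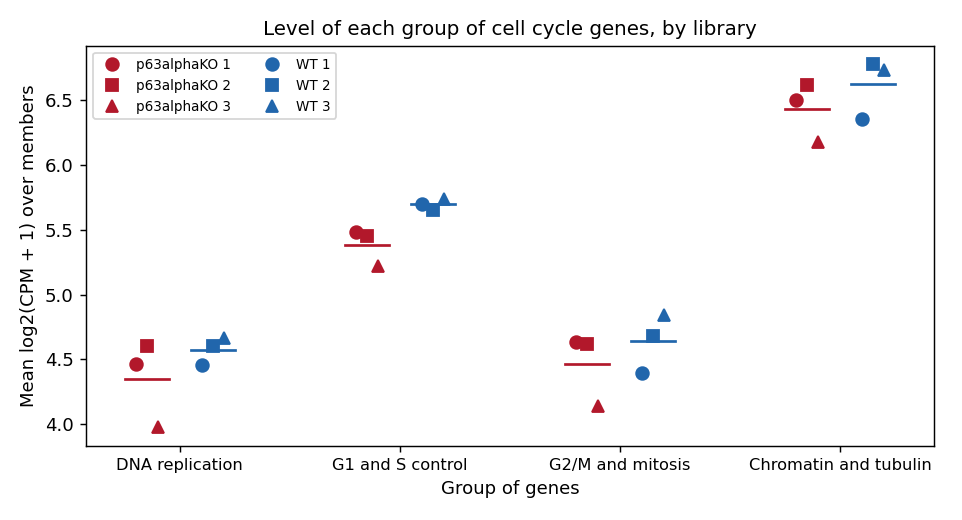
Mean log2(CPM + 1) over the 13 replication, 6 G1 and S control, 19 mitosis and 4 chromatin and tubulin genes in each library, with p63alphaKO in red, WT in blue, a marker shape for each replicate and a line at each group's mean. p63alphaKO replicate 3 is the lowest point in each set. The genotypes do not overlap in G1 and S control, where 2 of the 6 genes were under the minimum for testing.

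Among the libraries, p63alphaKO replicate 3 was the lowest for most of the genes. It was the lowest of the 6 libraries for 21 of the 33 tested genes (63.6%), for 12 of 15 mitosis genes and for 5 of 11 replication genes. The same library was the lowest for 31.6% of all tested genes. WT replicate 3 was the highest library for 13 of the 33 (39.4%), beside 30.8% of all tested genes. With TMM scaling the share lowest in p63alphaKO replicate 3 was 42.4% of the 33 genes and 20.6% of all tested genes, and WT replicate 1 was then the lowest for 7 of the 15 mitosis genes against 6 for p63alphaKO replicate 3. Without p63alphaKO replicate 3 the median log2 fold change of the 33 genes was -0.023, beside -0.026 for all tested genes. Of the 33, 13 were then positive and 20 negative. Without WT replicate 1 the median of the 33 was -0.29, beside -0.14 for all tested genes. The median of the mitosis genes was 0.027 without p63alphaKO replicate 3 and -0.41 without WT replicate 1. The share of reads in the non-coding gene Gm42418 was 6.86% in p63alphaKO replicate 3 and between 4.62% and 4.70% in the other p63alphaKO libraries, against 6.49%, 3.33% and 5.34% in WT, and its part in these values was not tested.

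Markers of the cell types that divide or do not divide in skin are set beside these values. The summed level of 14 basal keratinocyte markers was between 5020 and 6099 CPM in p63alphaKO and between 3799 and 6591 CPM in WT, and that of 10 suprabasal markers between 115918 and 122155 CPM in p63alphaKO and between 113524 and 127158 CPM in WT. Of the 14 basal markers, all tested, 11 had positive and 3 negative values with a median of 0.34, and 1 was called lower and 0 higher. Their groups did not overlap for 6 higher and 1 lower, beside 7.6% and 13.4% of all tested genes. Of the 10 suprabasal markers, 5 were positive and 5 negative with a median of 0.014, and 1 was called higher and 0 lower. The mean log2 level of the suprabasal markers did not overlap between the genotypes, at 11.89 to 12.02 in p63alphaKO and 11.70 to 11.82 in WT, while that of the basal markers did, at 7.03 to 7.13 in p63alphaKO and 6.66 to 7.06 in WT. WT replicate 1, low in mitosis genes, was also the lowest library in the basal sum. Within p63alphaKO the order was the other way for replicate 2, which had the lowest basal sum (5020 CPM) and the highest mitosis sum (805 CPM). The relation of the 2 sums was not tested. The 15 hair follicle markers in the table had sums between 519 and 654 CPM in p63alphaKO and between 481 and 707 CPM in WT. Of the 7 tested, 2 were called lower, and none of the 15 was at 0 in a whole group. The shares called over all tested genes were 1.18% lower and 0.469% higher.

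Markers of fibroblasts, muscle and red blood cells were lower in p63alphaKO. Fibroblast markers were called lower for 11 of 13 tested, muscle markers for 6 of 9 and erythroid markers for 3 of 4, with 0 called higher. Over all tested genes, 1.18% were called lower and 0.469% higher. Summed muscle markers (11 genes) were between 57.6 and 92.0 CPM in p63alphaKO and between 432 and 2753 CPM in WT. Erythroid markers (7 genes in the table) were between 559 and 1766 CPM in p63alphaKO, where Slc4a1 was at 0 in all libraries, and between 1903 and 3441 CPM in WT. Endothelial markers (7 genes, 0 tested) were between 3.66 and 8.44 CPM in p63alphaKO, with Emcn and Cldn5 at 0, and between 18.9 and 60.8 CPM in WT. Immune markers (10 genes, 0 tested) were between 10.1 and 21.5 CPM in p63alphaKO, with Cd207, Trdc and Cd3e at 0, and between 19.2 and 46.9 CPM in WT, with Trdc and Cd3e at 0. Melanocyte markers (7 genes) were between 324 and 464 CPM in p63alphaKO and between 196 and 322 CPM in WT, with 0 of 3 tested called. These melanocyte sums did not overlap and were higher in p63alphaKO, with 324 CPM next to 322 CPM at the border. The mean log2 level of the melanocyte markers overlapped, at 3.94 to 4.51 in p63alphaKO and 3.53 to 4.17 in WT.

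Such cells can also divide, and their part in the levels of the cell cycle genes was not tested. The fibroblast sum was 689.7, 1009 and 579.5 CPM in p63alphaKO replicates 1, 2 and 3, against 5756, 2654 and 4120 CPM in WT replicates 1, 2 and 3. The mitosis sum was 751, 805 and 557.4 CPM in p63alphaKO, against 643.7, 796 and 953 CPM in WT. The 2 sums had the same order of libraries within p63alphaKO, and within WT replicate 1 had the highest fibroblast and the lowest mitosis sum.

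**Figure D5:**
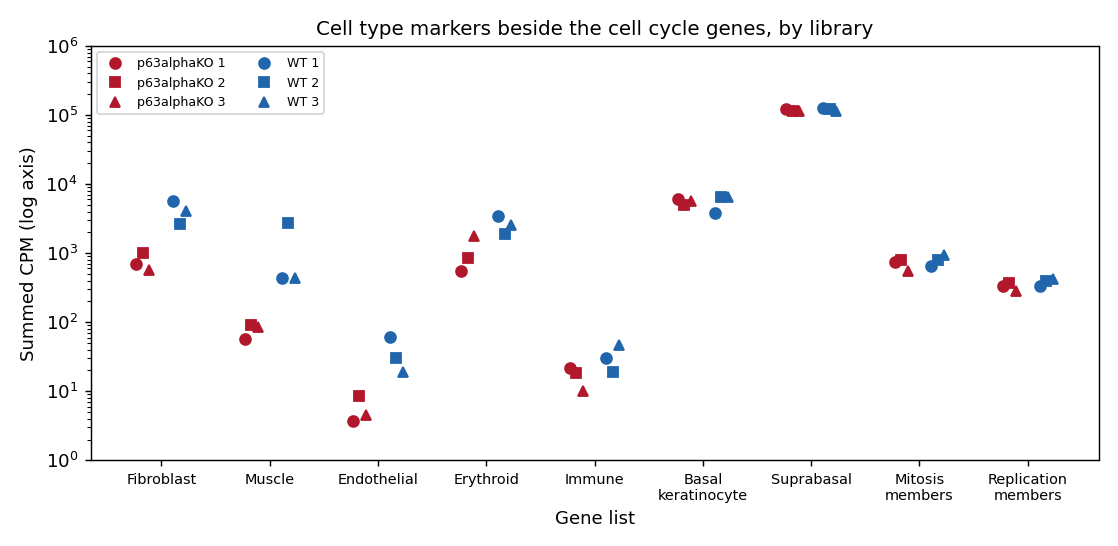
Summed CPM on a log axis for cell type marker lists and for the mitosis and replication genes in each library, with p63alphaKO in red, WT in blue and a marker shape for each replicate. Fibroblast, muscle, endothelial and erythroid sums do not overlap between the genotypes, while the mitosis sums (557.4 to 805 CPM in p63alphaKO, 643.7 to 953 CPM in WT) do.

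Other genes of the same pathway, listed by role, gave 0 calls in limma as well, beside 1.65% of all tested genes. Of 50 further replication genes 25 were tested, with 8 positive and 17 negative values and a median of -0.091. Among these 25, 0 were higher and 3 lower without overlap, beside 7.6% and 13.4% of all tested genes. The 3 with the smallest p were Orc4, Pold3 and Dut, all negative. Dut, whose product keeps uracil out of DNA, was at 34.7, 35.5 and 12.2 CPM in p63alphaKO, against 43.3, 43.3 and 41.2 CPM in WT, a log2 fold change of -0.75 (interval -1.48 to -0.033, adjusted p = 0.299). The groups did not overlap, and p63alphaKO replicate 3 was far below the rest. Pold3, a polymerase delta subunit, and Orc4, of the origin recognition complex, had values of -0.69 (adjusted p = 0.457) and -0.56 (adjusted p = 0.466). The groups did not overlap for Pold3 and overlapped for Orc4.

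Of 55 further mitosis genes with values, 37 were tested, with 15 positive and 22 negative values and a median of -0.055. Among these 37, 2 were higher and 2 lower without overlap, beside 7.6% and 13.4% of all tested genes. Here the 3 with the smallest p were positive. Ckap2l, a spindle protein gene, was at 37.3, 44.0 and 45.0 CPM in p63alphaKO, against 27.3, 27.5 and 25.2 CPM in WT, without overlap (log2 fold change 0.64, interval 0.16 to 1.12, unadjusted p = 0.0130, adjusted p = 0.178). Prc1, which bundles microtubules at the spindle midzone, was at 108, 83.6 and 60.0 CPM in p63alphaKO, against 59.2, 60.3 and 46.3 CPM in WT. Its value was 0.56 (interval 0.061 to 1.06, adjusted p = 0.257).

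Of 27 further regulators of the cycle 18 were tested, 7 positive and 11 negative, with a median of -0.031. Among these 18, 1 was higher and 2 lower without overlap, beside 7.6% and 13.4% of all tested genes. Lin54, the DNA-binding subunit of the MuvB complex, was at 22.3, 34.1 and 26.8 CPM in p63alphaKO, against 15.2, 19.7 and 21.7 CPM in WT. The groups did not overlap, and the log2 fold change was 0.53 (interval -0.069 to 1.12, adjusted p = 0.390). E2f7, a repressive E2F, had a value of 0.62 (adjusted p = 0.440), and Rb1, the gene of the retinoblastoma protein, one of -0.36 (adjusted p = 0.485), again without overlap between the groups.

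No inhibitor of the cycle passed the test. Of 12 such genes 9 were tested, 6 positive and 3 negative, with a median of 0.27 and 0 called, beside 1.65% of all tested genes. Among these 9, 2 were higher and 0 lower without overlap, beside 7.6% and 13.4% of all tested genes. In limma 2 passed an unadjusted p under 0.05, beside 15.6% of all tested genes. Gadd45a, a stress-induced growth arrest gene, was at 28.8, 23.9 and 35.8 CPM in p63alphaKO, against 9.74, 20.3 and 12.0 CPM in WT. No library overlapped, and the log2 fold change of 1.07 (interval 0.38 to 1.75, unadjusted p = 0.00482) had an adjusted p of 0.106. Cdkn1a, which encodes the CDK inhibitor p21, was at 1736, 1882 and 1566 CPM in p63alphaKO, against 1271, 1497 and 1539.8 CPM in WT, without overlap (log2 fold change 0.27, interval -0.052 to 0.59, adjusted p = 0.421). Cdkn1c, which encodes the inhibitor p57, was at 82.7, 110.1 and 83.5 CPM in p63alphaKO, against 269, 97.6 and 131 CPM in WT. Its log2 fold change was -0.72 (interval -1.34 to -0.098, adjusted p = 0.239), with WT replicate 1 far above the rest. Among the 3 inhibitors under the minimum, named after their values were seen, Cdkn2b and Cdkn2c, which encode the CDK4 and CDK6 inhibitors p15 and p18, had lower values in p63alphaKO without overlap. Cdkn2c was at 1.41, 1.46 and 1.49 CPM in p63alphaKO, against 5.07, 5.36 and 9.44 CPM in WT, with a log2 fold change of -1.59 in the limma fit with no minimum (unadjusted p = 0.0126, adjusted p = 0.241). The value of Cdkn2b in that fit was -0.95 (adjusted p = 0.519), and Cdkn2a was at 0 in all WT libraries and at a single read (1 read) in p63alphaKO. The mean log2 level over the 12 inhibitors was 5.49 ± 0.066 in p63alphaKO and 5.56 ± 0.074 in WT (SD, n = 3 each).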

How the data were processed

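Epidermal RNA of 3 p63alphaKO and 3 WT embryonic samples was read by 3' sequencing, and samples were grouped by their labels. The authors deposited CPM values per gene, scaled to each library's total. STAR, HTSeq and mm10 are named in the submitters' processing notes, and their versions, the annotation, the strand setting and any use of molecular identifiers remain not given in the sources used here. All values were whole multiples of the CPM of 1 read (100% of them, within 0.0055 CPM), so reads per library could be recovered. The design had assumed another normalized unit, and its pseudocount of 1 and minimum mean of 10 were applied to CPM.

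The main test was limma 3.58.1 with a mean-variance trend, run in R 4.3.3 on log2 values of CPM + 1, over all 7464 genes at or above the minimum and with Benjamini-Hochberg adjustment. The recovered reads were tested with edgeR 4.0.16 (quasi-likelihood) and DESeq2 1.42.0. Fits were tested on simulated data. A level of 3 reads, taken as the floor, was between 0.670 and 1.17 CPM, and covers counting error only. An exact permutation test of 3 against 3 cannot go below p = 0.1 and was not used.

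The genes and lists were chosen with earlier results of these data known. Values in every library are given for genes whose groups do not overlap and, in each role, for the 3 with the highest mean CPM and the 2 with the largest fold change. Among further pathway genes the 3 with the smallest p in each list are named, except 1 mitosis gene that is not reported here. The mitotic cyclins, Ube2c, Cdc6 and Gins2 were added after their values were seen. Positions are those of GENCODE M21 for mm10, in which 30271 of the 30386 gene IDs were found. Alternatives were other scalings, pseudocounts and minima, a replicate block, both count tests and leaving out each library. The TMM values per library were added after the data were seen.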

Additional observations from a re-analysis of the deposited data

How the results depend on the processing

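None of the 33 tested genes was called under any of the alternatives run, and the smallest adjusted p was 0.0762 (Cenpf, limma, without WT replicate 1). Over all genes, 123 were called, against 256 with a minimum mean of 1 CPM, 36 with a minimum of 50 CPM, 317 by DESeq2, 82 by edgeR, and between 37 and 186 when 1 library was left out (37 without p63alphaKO replicate 3, 46 and 67 without p63alphaKO replicates 1 and 2, 186 without WT replicate 1). The calls divided into 35 higher and 88 lower as deposited, 48 and 65 with TMM, 69 and 64 with upper quartile factors, 42 and 66 with quantile normalization, and 152 and 165 by DESeq2. TMM moved the median of all genes to 0.018 and upper quartile factors to 0.048, against -0.085 as deposited. The G1 and S control median was -0.087 with TMM and -0.058 with upper quartile factors. The difference of the replication and mitosis medians lay between -0.12 (without p63alphaKO replicate 3) and 0.18 (without WT replicate 1).

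Signs of uncalled genes turned with scaling: Mcm3, Birc5 and Tubb5 were at 0.001, 0.064 and 0.10 with TMM. With upper quartile factors Mcm3, Mcm4, Top2a, Ccnb1, Bub1b, Birc5 and Tubb5 were at 0.030, 0.027, 0.015, 0.002, 0.007, 0.094 and 0.13. With quantile normalization Mcm4, Ccnb1, Bub1b and Birc5 were at 0.028, 0.082, 0.074 and 0.042. Birc5 and Tubb5 were at 0.073 and 0.064 by edgeR, and 0.085 and 0.078 by DESeq2. Leaving out 1 library at a time turned the sign of Birc5 (-0.30 to 0.13), Bub1b (-0.41 to 0.17), Ccna2 (-0.18 to 0.79), Ccnb1 (-0.47 to 0.31), Ccnb2 (-0.71 to 0.12), Cdk4 (-0.30 to 0.010), Hmgb2 (-0.51 to 0.010), Mcm2 (-0.14 to 0.30), Mcm4 (-0.27 to 0.18), Top2a (-0.29 to 0.063) and Tubb5 (-0.18 to 0.11). The cause of these turns was not tested.

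Same-numbered libraries of the 2 genotypes had correlations of -0.023, 0.066 and -0.11 in their deviations from the group means. Pairs with different numbers ran from -0.13 to 0.15. The sources name no pairing, and with 3 libraries per group these correlations cannot tell whether any libraries were paired. With a replicate block 127 genes were called, 0 of them among the 33, whose smallest adjusted p was then 0.323, and the medians by role were the same (-0.21 for replication and -0.22 for mitosis). Depth limits the low genes: a gene at 10 CPM stood on 25.6 to 44.7 reads per library, and 9 of the 42 genes were under that minimum.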
